A study of Mus musculus with 30 samples.

Results

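Cholesterol synthesis genes were followed in the primary visual cortex (V1) of mice at postnatal days 14, 28 and 60 (P14, P28 and P60). The 8 genes, Hmgcs1, Idi1, Fdps, Fdft1, Sqle, Lss, Cyp51 and Dhcr7, were taken by name, and all probe sets whose array annotation gives 1 of these symbols alone were used. This gave 20 of the 36899 probe sets on 3 types of Affymetrix array, called chips A, B and C here. RNA of 10 litters (3 of P14, 3 of P28, 4 of P60) was put on each chip type, which makes 30 arrays. The mice were reared under standard conditions, without any treatment in the labels, and V1 was microdissected. Strain, sex and the number of animals behind a litter sample are not given in the sources used here, and p-values assume that litters are separate. The array titles carry a pair of litter numbers, of which the first never changes. The second was read as the litter, so the number of litters depends on that reading. Each value is a MAS5 signal, a brightness on a linear scale that the authors had scaled to the same level on every array.

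Cholesterol is built from acetyl-CoA through mevalonate, isoprenoid diphosphates, squalene and lanosterol. The brain makes nearly all of its own cholesterol, because lipoproteins of the blood do not cross the blood-brain barrier. Most of the cholesterol of the mature brain lies in myelin, the lipid sheath that oligodendrocytes wrap around axons, while growing neurons and astrocytes also make it. The genes of the pathway are switched on together by the transcription factor SREBP2 when a cell's sterols run low.

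Of the 20 probe sets 12 were tested, at least 1 for each of the 8 genes. The filter asked for a signal over the median of the chip type on at least 3 arrays. The other 8 were too dim, with no signal over 292 on any array, and 3 of them lay on all 10 arrays below the 95th percentile of probe sets for Bacillus transcripts, which serve as a background here. Among the tested ones, 7 were above the chip's median on all 10 arrays. Those of Dhcr7 on chip A and of Idi1 on chip B passed with exactly 3 arrays, and the Cyp51 probe set on chip A with 4.

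The RNA of P14 litter 1 stood apart. Its 3' control probe sets outshone the 5' ones by a factor of 9.57 to 12.2 for Gapdh and 12.2 to 12.8 for Actb, while the other 27 arrays had ratios of 0.741 to 1.32 and 1.04 to 1.5. Its arrays correlated with the others at a mean r of 0.796 on chip A and 0.783 on chip B. P60 litters 1 and 4 were the next lowest there, with 0.862 and 0.882 on chip A and 0.811 and 0.807 on chip B, and P60 litter 2 was lowest on chip C, at 0.789. P14 litter 1 lay below both other P14 litters on 8 of the 12 tested probe sets, above both on 3 and between them on 1. Values without P14 litter 1 are given for the members and lists, and for some of the other genes. The remaining values use all litters and can shift without it. A restricted set of arrays, chosen with earlier results of these data known, also leaves out the named P60 arrays.

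None of the 12 probe sets passed the test with all litters. Sqle came nearest: its signal at P60 was 0.494 times that at P14, and every P60 litter was below every P14 litter. Hmgcs1 and Idi1 also had lower means at P28 and P60 than at P14, the ages overlapped for Fdft1 and for Cyp51 on chip A, and Fdps depended on P14 litter 1. The tested probe set of Lss was higher at P60 in 2 litters. The probe sets of Dhcr7 pointed in opposite directions.

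The test was limma on log2 of the signal plus a constant, with age as the only term, and Benjamini-Hochberg adjustment over all 20724 probe sets tested at a threshold of 0.05. Between P14 and P28 it called 0 of the 12 and 0.00483% of all tested probe sets. The lowest adjusted p of the 12 was 0.259, and 2 of them had an unadjusted p under 0.05, against 7.87% of all. In 8 of the 12 the later mean was lower, against 47.1% of all. From P28 to P60 it called 0 of the 12 and 0% of all, with 1 of the 12 at an unadjusted p under 0.05, against 5.43%. Here 11 of the 12 were lower, against 51% of all. From P14 to P60 it called 0 of the 12 and 0.396% of all, with 5 of the 12 at an unadjusted p under 0.05, against 15.7%, and 7 of the 12 lower, against 45.2%. An F-test over the 3 ages called 0 of the 12 and 0.111% of all, and 3 of the 12 had an unadjusted p under 0.05, against 11.3%. A contrast of P28 with the mean of P14 and P60, which asks whether a level peaks or dips in between, called 0 of the 12 and 0% of all, with 1 of the 12 at an unadjusted p under 0.05, against 3.78%. With array weights, which give the less typical arrays less say, 2 of the 12 passed between P14 and P28 (5.61% of all), 4 between P14 and P60 (17.5% of all) and 3 in the F-test (14.6% of all). Without P14 litter 1, 1 of the 12, Sqle, passed the F-test (limma, adjusted p = 0.0496), where 0.627% of all did.

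Hmgcs1, the cytosolic synthase that makes HMG-CoA at the entry to the pathway, gave signals of 3120.4, 3032 and 2462 in the 3 P14 litters. They were 2143, 1866 and 2229.6 at P28, and 1976, 1403, 2122 and 2567 in P60 litters 1 to 4. Every P28 litter was below every P14 litter, whereas P60 litter 4 reached into the P14 range. The mean was 2871 ± 357 (SD, n = 3) for P14, 2079 ± 190 (SD, n = 3) for P28 and 2017 ± 480.4 (SD, n = 4) for P60. On the log2 scale the difference of P60 from P14 was -0.53 (SE 0.219), for which limma gave an adjusted p of 0.278. Most of that difference was already there at P28, at -0.45 (adjusted p = 0.677). The differences from P14 without P14 litter 1 were -0.46 for P60 (adjusted p = 0.267) and -0.39 for P28 (0.624), and in the restricted set -0.65 for P60 (0.140).

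Idi1 encodes the isomerase that interconverts the basic isoprenoid building blocks. Its probe set on chip A gave 1372, 1045 and 834 at P14, 873, 797 and 840.1 at P28, and 565, 661, 1001 and 709 at P60. The highest P14 value was that of P14 litter 1, and P60 litter 3 stood above P14 litter 3, so the ages overlapped. The difference of P60 from P14 was -0.54 with a 95% interval of -1.04 to -0.04 and an adjusted p of 0.284 (limma), and it was -0.36 without P14 litter 1 (adjusted p = 0.383) and -0.19 in the restricted set (adjusted p = 0.703). The dimmer probe set on chip B had a difference of -0.34 (adjusted p = 0.744), and there P14 litter 1 had a signal of 70.5 while the other P14 litters had 449 and 266. Leaving out P14 litter 1 gave -0.90 (adjusted p = 0.252). Both Idi1 probe sets had lower means at P60 than at P14, but P14 litter 1 was the highest P14 litter on one and the lowest on the other.

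Fdps joins isoprenoid units into farnesyl diphosphate, the branch point from which sterols, dolichol, ubiquinone and prenyl groups are made. Its brightest probe set, on chip A, gave 359, 2669.6 and 2158 at P14, 2168, 1829.8 and 1533 at P28, and 1182, 1631, 1335.5 and 1189 at P60. P14 litter 1 was at 0.149 times the mean of the other P14 litters, and below every later litter as well. With all litters the difference of P60 from P14 was 0.03 with an interval of -1.08 to 1.15 (limma, adjusted p = 0.980). Without P14 litter 1 the sign turned and the test was passed, at -0.84 with a standard error of 0.193 (limma, adjusted p = 0.0442, where 2.4% of all probe sets were called), and in the restricted set it was -0.69 (adjusted p = 0.109). A probe set whose suffix f marks possible cross-hybridisation within a gene family gave 424, 1741 and 1103 at P14, and P14 litter 1 was again the lowest of the 10. Without that litter its difference of P60 from P14 was -0.12 (adjusted p = 0.800), so this probe set did not show the drop of the other. The other 4 Fdps probe sets were too dim to be tested.

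Fdft1 encodes squalene synthase, the first step that leads to sterols alone. Its signals were 921, 1792.5 and 1534 at P14, 1324, 2265 and 1505 at P28, and 1405, 1673, 1537 and 1434 at P60. The ages overlapped throughout, with P14 litter 1 the lowest value of all and P28 litter 2 the highest. The mean was 1416 ± 448 (SD, n = 3) at P14, 1698 ± 499 (SD, n = 3) at P28 and 1512 ± 121 (SD, n = 4) at P60. The difference of P60 from P14 was 0.14 with an interval of -0.41 to 0.69 (limma, adjusted p = 0.811), and -0.13 without P14 litter 1 (adjusted p = 0.759). The interval leaves room for changes of either sign.

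Sqle encodes squalene epoxidase, an oxygen-requiring enzyme that limits the rate of the sterol branch of the pathway. It gave 1518, 2259 and 1604 in the P14 litters, 1135, 1163 and 863 at P28, and 805, 972, 829 and 816 at P60. Every P28 litter and every P60 litter was below every P14 litter, while P28 litter 3 lay within the P60 range. The mean was 1794 ± 405 (SD, n = 3) at P14, 1054 ± 166 (SD, n = 3) at P28 and 856 ± 78.1 (SD, n = 4) at P60. The P60 difference from P14 was -1.02 on the log2 scale, with a standard error of 0.201, an interval of -1.46 to -0.58 and an adjusted p of 0.059 (limma). It was -1.12 without P14 litter 1 (adjusted p = 0.0175) and -1.05 in the restricted set (adjusted p = 0.038, where 2.13% of all probe sets were called), which passed the threshold. Over 20 alternative settings it ran from -1.13 to -0.84 and its adjusted p from 0.00275 to 0.207, with 5 settings past the threshold. Besides the settings named, these were a filter that asks for all arrays over the median (1.36% of all called), centring of each array (0.439%) and array weights. Between P14 and P28 the difference was -0.74 (limma, adjusted p = 0.413), and between P28 and P60 it was -0.28 (adjusted p = 0.898).

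Of all tested probe sets, 8.41% had every P28 litter below every P14 litter, and 2 of the 12, those of Hmgcs1 and Sqle, did so. At P60 against P14 this share was 6.42% of all, and 1 of the 12, Sqle, did so. In the other direction, 9.45% of all had every P28 litter above every P14 litter, and 1 of the 12, Dhcr7 on chip C, did so. At P60 against P14 that share was 6.61%, and 2 of the 12, Dhcr7 on chip C and Lss on chip B, did so. In these bulk samples, fewer cells of a type and less RNA per cell cannot be told apart.

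**Figure D1:**
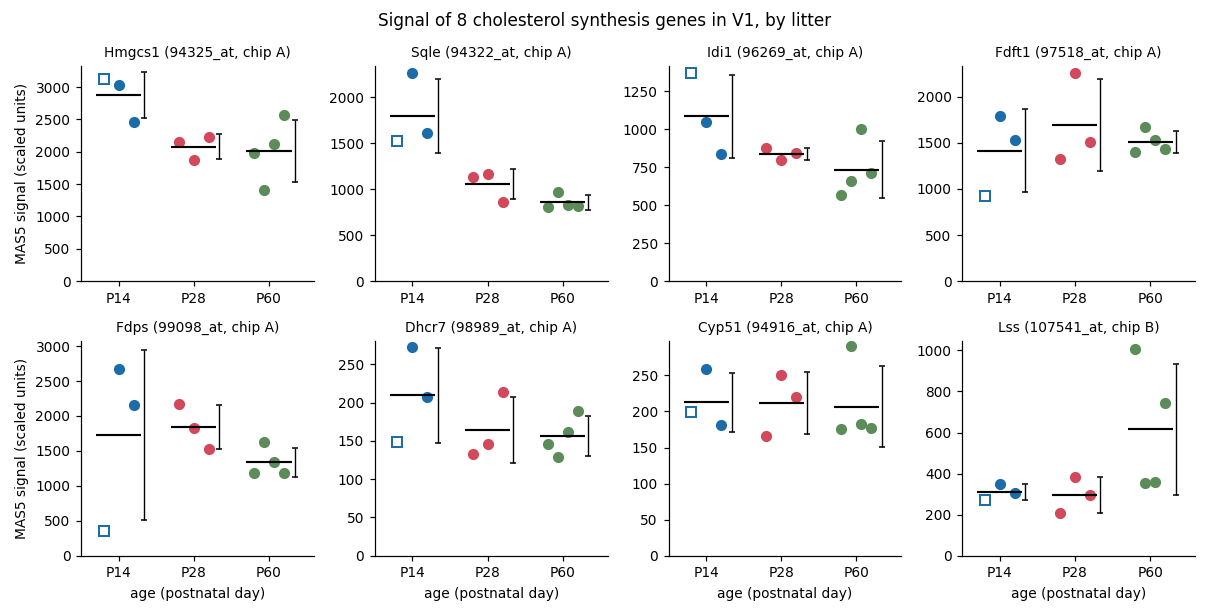
MAS5 signal (scaled units, linear axis from 0) of the 8 genes, 1 probe set each, at P14, P28 and P60. Points are litters, the open square is P14 litter 1, black lines are means and bars 1 SD (n = 3, 3 and 4). Sqle at P60 (805 to 972) lies below all its P14 litters (1518 to 2259), and the open square of Fdps, at 359, lies below all its other litters.

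Lss encodes lanosterol synthase, which folds the epoxide of squalene into the first sterol. Its tested probe set, on chip B, gave 272, 350.2 and 307 at P14, 208, 382 and 298 at P28, and 1005.5, 353, 358.5 and 744 at P60. P60 litters 1 and 4 were the high ones, and these are the litters whose chip B arrays stood apart, while P60 litters 2 and 3 lay within the P28 range, though just above all P14 litters. The difference of P60 from P28 was 0.83 with an interval of 0.10 to 1.57 (limma, adjusted p = 0.894), and 0.26 in the restricted set, which lacks both litters (adjusted p = 0.867). From P14 to P60 the difference was 0.76 (limma, adjusted p = 0.305), 0.10 in the restricted set (0.888) and 0.68 without P14 litter 1 (0.359). On chip A the Lss probe set, too dim to be tested, gave 47.5, 66.1 and 111 at P14, 144, 197 and 147 at P28, and 79, 231, 251.5 and 172 at P60. There P60 litter 1 was the lowest P60 litter, so the probe sets did not share which P60 litters were high. The other 2 Lss probe sets, on chip C, had age means below the Bacillus level at all 3 ages.

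Cyp51 encodes lanosterol demethylase, the first step after lanosterol. Its chip A probe set gave 199, 259 and 181 at P14, 166, 250 and 220.5 at P28, and 176, 291, 183 and 177.5 at P60. The age means of 213 ± 40.8, 212 ± 42.8 and 207 ± 55.9 (SD, n = 3, 3 and 4) differed by less than the spread among litters. The difference of P60 from P14 was -0.05 with an interval of -0.62 to 0.53 (limma, adjusted p = 0.942), and -0.08 without P14 litter 1 (0.906). A probe set on chip C, with age means below that chip's Bacillus level of 252, stood at -0.58 (adjusted p = 0.543), and is not read as a size. The chip B probe set was too dim to be tested.

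Dhcr7 encodes the reductase of the last step, whose loss in people causes Smith-Lemli-Opitz syndrome. On chip A it gave 149, 273 and 208 at P14, 133, 145.5 and 214 at P28, and 146, 128, 161 and 189.5 at P60. These overlapped at all ages, with a difference of P60 from P14 of -0.33 (limma, adjusted p = 0.594), and of -0.52 without P14 litter 1 (0.377). On chip C a probe set of the r type, designed under relaxed rules, gave 1186, 1029 and 1144 at P14, 2203.5, 2504 and 2315 at P28, and 2151, 2120.2, 1294 and 2371 at P60. Every P28 litter and every P60 litter was above every P14 litter there, a pattern that 9.45% and 6.61% of all tested probe sets had. The difference of P28 from P14 was 1.04 with a standard error of 0.241 and an interval of 0.51 to 1.56 (limma, adjusted p = 0.259), and that of P60 was 0.77 (adjusted p = 0.140). Without P60 litter 3 the latter was 0.96 and passed (adjusted p = 0.0387, where 1.25% of all were called). The chip A probe set had a log2 difference of -0.28 between P14 and P28, so the 2 probe sets annotated to Dhcr7 gave no shared direction, and which one follows the Dhcr7 transcript was not tested.

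**Figure D2:**
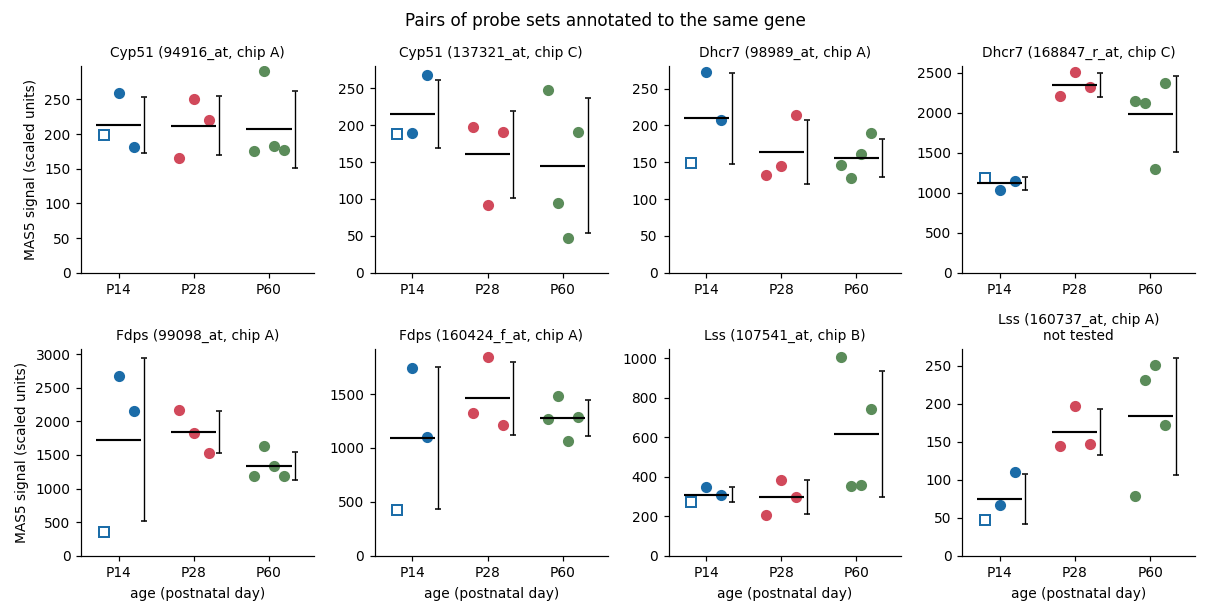
MAS5 signal (scaled units, linear axes from 0) for pairs of probe sets annotated to Cyp51, Dhcr7, Fdps and Lss, at P14, P28 and P60. Points are litters, the open square is P14 litter 1, lines are means and bars 1 SD (n = 3, 3 and 4). The chip C probe set of Dhcr7 has 2203.5 to 2504 in the P28 litters and 1029 to 1186 in the P14 litters, while that on chip A overlaps between ages.

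The promoters of 4 of the genes are shown because Hmgcs1 and Idi1 had lower means at P60 than at P14, whereas Cyp51 was nearly level and Lss had a higher one. They are the 250 bases before the gene start in RefSeq (GRCm38.p6), 5′ to 3′ on the gene's strand. Capitals mark a pattern for the core of the sterol regulatory element, TCACNCCAC, and the NF-Y motif CCAAT, on either strand. ATTGG is thus CCAAT read on the other strand.
Hmgcs1 (chr13:119690101-119690350, plus strand): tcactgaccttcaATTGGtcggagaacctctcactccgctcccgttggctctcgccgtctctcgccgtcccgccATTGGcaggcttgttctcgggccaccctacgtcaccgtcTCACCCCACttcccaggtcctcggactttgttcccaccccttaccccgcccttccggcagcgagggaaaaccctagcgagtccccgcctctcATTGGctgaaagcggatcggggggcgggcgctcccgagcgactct
Idi1 (chr13:8885356-8885605, plus strand): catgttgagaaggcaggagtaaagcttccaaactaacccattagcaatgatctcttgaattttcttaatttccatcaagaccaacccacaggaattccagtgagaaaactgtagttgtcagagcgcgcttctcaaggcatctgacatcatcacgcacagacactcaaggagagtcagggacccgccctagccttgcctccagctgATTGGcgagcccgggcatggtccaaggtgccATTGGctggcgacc
Cyp51 (chr5:4104698-4104947, minus strand): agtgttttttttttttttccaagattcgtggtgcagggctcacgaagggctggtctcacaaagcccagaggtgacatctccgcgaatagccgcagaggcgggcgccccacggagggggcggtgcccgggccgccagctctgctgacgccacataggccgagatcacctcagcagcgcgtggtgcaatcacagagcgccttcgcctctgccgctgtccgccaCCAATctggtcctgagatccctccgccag
Lss (chr10:76531355-76531604, plus strand): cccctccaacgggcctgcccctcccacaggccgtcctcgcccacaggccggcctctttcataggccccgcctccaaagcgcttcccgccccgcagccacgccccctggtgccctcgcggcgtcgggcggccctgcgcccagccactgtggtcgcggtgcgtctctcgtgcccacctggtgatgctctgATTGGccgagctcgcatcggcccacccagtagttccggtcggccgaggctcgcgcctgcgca

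The Hmgcs1 promoter held the sterol core, TCACCCCAC, starting 137 bases before the gene start, with CCAAT at 3 places. Those of Idi1, Cyp51 and Lss held no match to that pattern and had CCAAT at 2, 1 and 1 places. No other form of the sterol regulatory element was searched for. The lack of a match therefore does not show that a promoter lacks the element. Over all 32851 RefSeq promoter windows of this length, 1.05% held the sterol core and 33.8% held CCAAT. Sequences were found for 5 of the 8 genes, with 7 gene starts in all, 3 of them for Dhcr7. Of these 7 windows 1 held the sterol core, 5 held CCAAT, 6 held the Sp1 motif GGGCGG and 1 the E-box CACGTG, which 32.7% and 6.02% of all windows held. Among 14 windows of other cholesterol synthesis genes, 0 held the sterol core and 11 held CCAAT. A match is a description of the letters and not a measured binding site.

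Of 15 other genes of the pathway listed, 12 were tested, and 0 passed in any comparison between ages. The others were not analysed here. By the 1 probe set kept for each gene, 10 of the 12 had a higher mean log2 signal at P60 than at P14 and 2 a lower one. The median difference was 0.16, where all 11240 genes tested had a median of 0.05 and 54.5% were higher. For several genes other tested probe sets had the opposite sign. With P14 litter 1 left out 7 of 12 were higher (median 0.06). In the restricted set, which also leaves out P60 arrays, 3 of 12 were (median -0.09). P14 litter 1 lay below both other P14 litters in 7 of the 12. For Pmvk, a mevalonate-pathway kinase, it stood at 83.7 against 651 and 659, and for Mvd, the decarboxylase that follows, at 58.4 against 398 and 350.2. The difference of P60 from P14 was 0.54 for Pmvk (limma, adjusted p = 0.574) and -0.23 without P14 litter 1 (0.506). Other tested Pmvk probe sets, on chip C, stood at -0.56 and 0.90 with all litters. For Mvd, 1 of the lower pair, the difference was -0.70 (limma, adjusted p = 0.564), and -1.40 without P14 litter 1 (0.140). P60 litters 1 and 4 had 59.3 and 41.2 on this probe set, while P60 litters 2 and 3 had 240 and 237. In the restricted set, which lacks P60 litters 1 and 4 on chip A, it stood at -0.57 (limma, adjusted p = 0.178). A second Mvd probe set, on chip C, stood at 0.44. The other lower gene was Hsd17b7, a reductase of sterol intermediates, at -0.07 (adjusted p = 0.910). It stood at 0.03 without P14 litter 1, and at 0.21 on a second probe set with all litters.

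Ebp, a sterol isomerase late in the pathway, had the lowest unadjusted p of these 12 between P14 and P60. It gave 205, 219.7 and 217.5 at P14, 283, 309 and 264 at P28, and 299.8, 389 and 319 with 304 at P60, so that every later litter was above every P14 litter. Its difference of P60 from P14 was 0.53 with a standard error of 0.199 (limma, adjusted p = 0.235). Msmo1, a sterol methyl oxidase, stood at 0.07 (adjusted p = 0.898), Tm7sf2 at 0.22 (0.678), Lbr at 0.17 (0.772), Mvk at 0.25 (0.616), Ggps1 at 0.14 (0.878), Idi2 at 0.04 (0.978) and Sc5d at 0.03 (0.973). Other tested probe sets stood at -0.67 and -0.56 for Tm7sf2, at -1.30, -0.48, 0.10 and 0.33 for Ggps1, and at -0.35 for Sc5d. They stood at -0.21 for Lbr, -0.01 for Msmo1 and 0.23 for Mvk. Without P14 litter 1 the kept probe set stood at -0.01 for Tm7sf2, 0.00 for Mvk and -0.20 for Idi2. Nsdhl, a sterol dehydrogenase, stood at 0.39 (limma, adjusted p = 0.683), with P60 litters 1 and 4 at 1378 and 936 and the other P60 litters at 352 and 342. In the restricted set this probe set stood at -0.70 (adjusted p = 0.0699), and the other 4 tested probe sets of Nsdhl had differences from -0.57 to -0.28 with all litters.

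Counting members and other genes together, 20 genes of the pathway were tested, each counted by the 1 probe set kept for it. Between P14 and P28, 11 were lower and 9 higher, and between P14 and P60, 7 were lower and 13 higher. The 8 members had a median difference of -0.18 between P14 and P28, with 6 of 8 lower, and of -0.19 between P14 and P60, with 5 of 8 lower. Of all 11240 genes tested, 5166 were lower at P28 and 5112 at P60. Without P14 litter 1, 8 of 8 members were counted as lower at P28 (median -0.27), Fdft1 with a difference that rounds to 0.00. Of all genes 5444 were lower there, and of the 12 other pathway genes 8 were (median -0.19). At P60 7 of 8 members were lower (median -0.41), and Lss was higher, where 5476 of all genes were lower. The restricted set had the same 8 of 8 at P28, and 6 of 8 lower at P60 (median -0.39), where 5491 of all genes were. The member counts take Dhcr7 from chip A, whereas its chip C probe set was higher in all of these comparisons. Litter by litter, the mean of the members' log2 signals about each gene's own mean was -0.21, 0.44 and 0.12 at P14. It ran from -0.11 to 0.08 at P28 and from -0.11 to -0.01 at P60, so P14 litter 1 was the lowest and P14 litter 2 the highest of the 10. Over the 10 litters, which share these 3 ages, the 28 pairs of members had Pearson correlations from -0.66 to 0.76 with a median of 0.10, and 12 of them were negative. Over the 9 litters without P14 litter 1 they ran from -0.71 to 0.92 with a median of 0.32, and 8 of the 28 were negative.

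**Figure D3:**
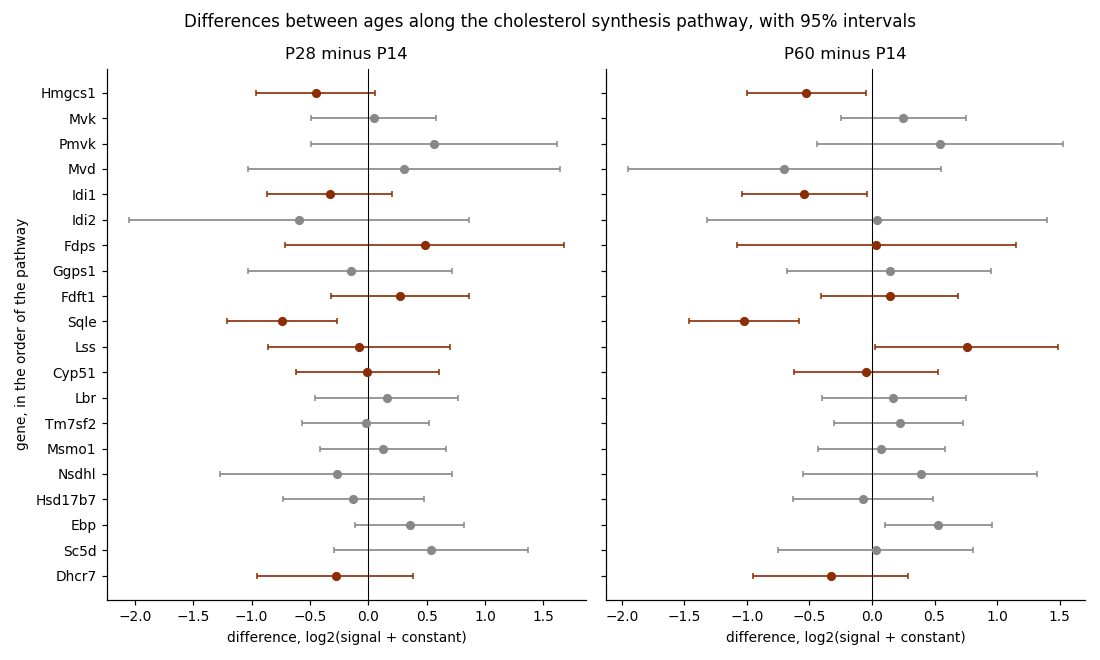
Difference in log2(signal + constant) of P28 from P14 (left) and of P60 from P14 (right) for 20 genes, 1 probe set each, in the approximate order of the pathway, with 95% intervals from limma. Brown points are the 8 genes described here and grey points the other genes of the pathway. Of the 20 probe sets shown, Sqle has the largest difference on the left and on the right, at -0.74 and -1.02.

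Genes that sense or take up sterols were tested for 8 of 11 listed, and 0 passed. Srebf1, the SREBP gene tied mainly to fatty acid synthesis, gave 911, 876 and 1003 at P14, 1076, 1084 and 1061 at P28, and 1247, 1708, 1304 and 1103 at P60. All 3 ages were separate, with a difference of P60 from P14 of 0.49 (limma, adjusted p = 0.237). The probe set for Srebf2, the SREBP gene tied to cholesterol synthesis, was too dim to be tested. Insig1, which holds SREBPs in the endoplasmic reticulum, stood at -0.32 (adjusted p = 0.660) and its partner Scap at 0.07 (0.932). The largest difference was that of Mylip, a ubiquitin ligase induced by sterols, with 889 ± 294 (SD, n = 3) for P14 and 406 ± 121 (SD, n = 4) for P60, at -1.02 (limma, adjusted p = 0.113). Mbtps2, a protease that releases SREBPs, stood at -0.61 (adjusted p = 0.320). In both P14 litter 1 was the highest of all litters, at 1215 for Mylip and 1295 for Mbtps2. Without that litter Mylip stood at -0.78 (limma, adjusted p = 0.133), Mbtps2 at -0.24 (0.592), Insig1 at -0.02 (0.986) and Scap at -0.33 (0.559). Of the 8 genes 4 were higher at P60 than at P14 (median -0.12), and 3 were without P14 litter 1 (median -0.13).

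Sterol transport and turnover genes were tested for 15 of 19 listed, and 0 passed between any ages, with 6 of 15 higher at P60 than at P14 (median -0.24). Lrp8, a receptor for reelin and apolipoprotein E, stood at -0.99 (limma, adjusted p = 0.217), Apoe at 0.68 (0.551) and Abca2 at 0.49 (0.549). For Apoe, the main apolipoprotein of the brain, P14 litter 1 had 2710.2 while the other P14 litters had 17112 and 21301. For Abca2, a lipid transporter, it had 455.5 while they had 1357 and 1727. Without that litter the difference was -0.25 for Apoe (limma, adjusted p = 0.452) and -0.07 for Abca2 (0.908), and 5 of the 15 were higher (median -0.21). A second tested probe set of each was higher at P60, at 1.15 for Apoe and 1.12 for Abca2 with all litters. Without P14 litter 1 these stood at 1.03 (limma, adjusted p = 0.237) and 0.57 (0.343). For fatty acid synthesis 11 of 11 were tested and 0 passed, with 3 of 11 higher at P60 (median -0.04). Elovl5, an elongase, stood at -0.84 (adjusted p = 0.130), Me1 at -0.64 (0.300) and Fasn, the fatty acid synthase, at 0.39 (0.302). Leaving out P14 litter 1, Elovl5 stood at -0.60 (limma, adjusted p = 0.108) and Me1 at -0.39 (0.440), and 4 of 11 were higher (median -0.16). Fads2, a desaturase chosen after its values were seen, fell there on each of its 3 tested probe sets, at -0.91, -0.78 and -0.95 (limma, adjusted p = 0.0328, 0.0341 and 0.038). In the restricted set Fads2 passed on 2 of them, though not on the 1 kept for it. The isoprenoid branch genes had 7 of 10 tested, 0 passed, and 3 of 7 were higher (median -0.01), with Icmt at 0.66 (adjusted p = 0.251), Pggt1b at -0.27 (0.726) and Rce1 at 0.26 (0.635). Again 3 of 7 were higher without P14 litter 1 (median -0.09).

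The timing of myelination was read from a list of 25 myelin and mature oligodendrocyte genes, of which 18 were tested. Between P14 and P28, 17 of 18 had higher means, with a median difference of 0.66, where all genes tested had a median of 0.04 and 54% were higher. In 10 of 18 every P28 litter was above every P14 litter, against 9.45% of all tested probe sets, though 0 passed the test with all litters. Between P28 and P60, 8 of 18 were higher and the median was -0.03. From P14 to P60, 17 of 18 were higher (median 0.68), and by the probe set kept for each gene Mag and Ndrg1 rose. Without P14 litter 1, which lay above both other P14 litters in 12 of the 18, Mobp and Mal rose by P28 (median 0.99) and 8 of 18 by P60 (median 0.91). Of all probe sets tested 0.125% and 2.4% were called there. The restricted set gave 8 and 6, where 1% and 2.13% of all were called. This list was known from earlier results of these data to be higher at P28, so its direction is not independent evidence.

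Mbp, a main protein of compact myelin, gave 2681, 2519 and 2973 at P14, 8133, 6102 and 4520.4 at P28, and 7829.8, 4887, 5646 and 9010 at P60. On this probe set, the one kept for Mbp, every later litter was above every P14 litter, and the ages P28 and P60 overlapped. Its difference of P60 from P14 without P14 litter 1 was 1.27 (limma, adjusted p = 0.0325). Other tested Mbp probe sets stood there at 0.56 (0.275) and 0.27 (0.754). Mag, an adhesion protein at the inner face of the sheath, had 260.1 ± 114 (SD, n = 3) in P14 litters, 810.4 ± 175 (SD, n = 3) in P28 litters and 775 ± 137 (SD, n = 4) in P60 litters. Its difference of P60 from P14 was 1.51 with a standard error of 0.284 (limma, adjusted p = 0.0461). P14 litter 1 had 133 while the other P14 litters had 295 and 353. Without that litter the difference was 1.16 (limma, adjusted p = 0.0235), and 0.39 (0.614) on a second Mag probe set. Ndrg1, a gene of myelinating glia, went from 441 ± 26.4 to 926 ± 103 and 1135 ± 120 (SD, n = 3, 3 and 4), at 1.29 (adjusted p = 0.0116). Mobp, at 1.37 (0.235), and Mal, at 0.93 (0.108), encode further myelin proteins, and for Mobp P14 litter 1 had 3376 while the other P14 litters had 441 and 717. Another of the 7 tested Mobp probe sets gave 226, 135 and 150.4 at P14 and 430 to 927 at P60, and rose by 1.70 (limma, adjusted p = 0.0308). The Mobp probe sets differed in size. Without P14 litter 1, those at 2.21 and 1.88 passed between P14 and P60 (limma, adjusted p = 0.00215 and 0.0125). The others stood there at 1.17, 0.58, 0.12, 0.10 and 0.08 (adjusted p from 0.102 to 0.876).

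Set beside this, the 8 cholesterol genes had a median of -0.18 over the interval in which the myelin genes had 0.66, and of -0.10 between P28 and P60, where the myelin genes had -0.03. Sqle and Hmgcs1 were highest at P14, when Mbp, Mag and Ndrg1 were at their lowest. Among the tested member probe sets, those of Fdft1 and Fdps and the chip C one of Dhcr7 had higher means at P28 than at P14. However, Fdft1 and the brightest Fdps probe set stood at 0.00 and -0.39 without P14 litter 1. The chip C probe set of Dhcr7 stood at 1.08 without that litter (limma, adjusted p = 0.151). Of the 12 tested probe sets it alone had all P28 and P60 litters above P14, as the kept Mbp probe set did. No test of the difference between the lists was made.

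**Figure D4:**
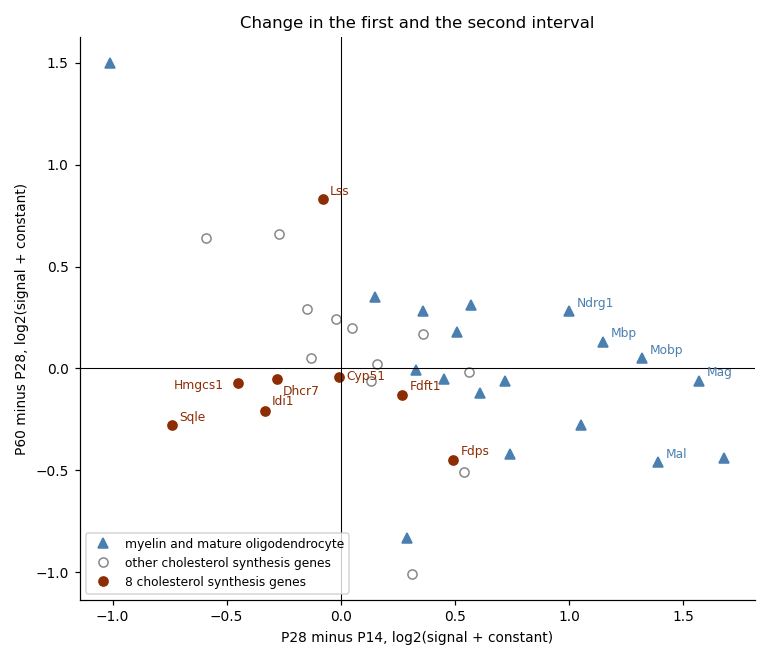
Difference in log2(signal + constant) of P28 from P14 (horizontal) and of P60 from P28 (vertical), 1 point a gene, for the 8 cholesterol synthesis genes (brown), 12 other genes of the pathway (open circles) and 18 myelin genes (triangles). Of the myelin genes 17 lie right of 0, whereas 6 of the 8 brown points lie left of it, and Fdps and Fdft1 lie right of it.

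Markers of other cells were read in the same litters as the mean of their log2 signals about each gene's own mean. All 14 neuron markers were tested, as a cortical sample should show, and 5 of 14 were higher at P60 than at P14. Their score ran from -0.25 to 0.34 at P14, with P14 litter 1 the lowest, and from -0.36 to 0.04 at P60. Stmn2, a protein of growing neurites, stood at -1.16 (limma, adjusted p = 0.051), Gad2 at -1.42 (0.217) and Nefm at -0.87 (0.469). Astrocyte markers, 12 of 12 tested and 6 higher at P60, had scores from -0.24 to 0.29 at P14 and from -0.21 to 0.07 at P60, with S100b at 0.63 (adjusted p = 0.403), Slc1a3 at -0.60 (0.276) and Slc4a4 at 0.56 (0.345). Oligodendrocyte progenitor markers, 7 of 10 tested and 0 higher at P60, went from between 0.18 and 0.42 at P14 to between -0.57 and -0.06 at P60, with Ptprz1 at -0.84 (adjusted p = 0.248), Gpr17 at -0.80 (0.156) and Olig1 at -0.66 (0.373). Endothelial and mural markers, 7 of 9 tested and 2 higher, ran from -0.09 to 0.52 at P14 and from -0.14 to -0.01 at P60. Slco1c1, a thyroid hormone carrier of brain vessels, stood at -1.08 (limma, adjusted p = 0.0545), Flt1 at 1.07 (0.176) and Vwf at -1.01 (0.168). Microglia markers, 5 of 9 tested and 3 higher, ran from -0.58 to 0.15 at P14 and from -0.19 to 0.19 at P60, with Cx3cr1 at 0.40 (adjusted p = 0.559), C1qa at 0.25 (0.761) and Csf1r at 0.11 (0.838). Leaving out P14 litter 1, 2 of the 5 were higher. Cx3cr1 then stood at -0.07 (limma, adjusted p = 0.883), C1qa at -0.31 (0.444) and Csf1r at 0.27 (0.502). Choroid plexus and blood markers, 5 of 6 tested and 5 higher, ran from -1.31 to -0.27 at P14 and from -0.22 to 0.64 at P60, with Hba-a1 at 1.25 (adjusted p = 0.264), Alas2 at 1.04 (0.348) and Clic6 at 1.00 (0.390). Leaving out P14 litter 1, 5 of 5 were still higher, with Hba-a1 at 0.63 (limma, adjusted p = 0.422), Alas2 at 0.78 (0.467) and Clic6 at 0.23 (0.810). With all litters 0 of these markers passed between any ages by the probe set kept for each gene. Stmn2 fell on another probe set, from 5072 to 7825 at P14 to 2084 to 2557 at P60, a difference of -1.48 (limma, adjusted p = 0.011). Without P14 litter 1, 6 of 14 neuron, 7 of 12 astrocyte, 0 of 7 progenitor and 2 of 7 endothelial and mural markers were higher at P60 than at P14. The kept probe sets of 5 markers passed there between P14 and P60, where 2.4% of all tested probe sets were called. Gad1, an enzyme of GABA synthesis, rose by 1.08 (limma, adjusted p = 0.0187). Stmn2 at -1.40 (0.00227), Gad2 at -2.07 (0.0321), Cldn5, a tight junction gene of vessels, at -1.36 (0.0322) and Slco1c1 at -1.12 (0.0322) fell. A second Gad2 probe set, on chip C, stood at -0.53 (limma, adjusted p = 0.520). In the restricted set Gad1, Stmn2, Gad2 and Slco1c1 passed in the same directions, and Camk2a, a kinase of excitatory neurons, fell by 2.76 (limma, adjusted p = 0.0102). A second Camk2a probe set stood there at -1.30 (limma, adjusted p = 0.0585). The kept Camk2a probe set stood at -1.75 without P14 litter 1 alone (0.146). Between P14 and P28 Stmn2 fell in both settings, where 0.125% and 1% of all were called. Slc1a3, an astrocyte glutamate transporter, fell in the restricted set (-0.89, limma, adjusted p = 0.0469). These genes were named after their values were seen. The myelin list ran from -0.69 to -0.17 at P14 and from 0.17 to 0.26 at P60. The part of these cell types in the levels of Sqle, Hmgcs1 and the other members was not tested.

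Genes whose pattern was most like that of the members were ranked by Pearson correlation over the 10 litters with the mean of the members' standardised log2 signals. Over 11232 other genes the median r was -0.00695 and the 95th percentile 0.539. The 10 highest were Dok4 (0.888), Sh3pxd2b (0.87), Plxna3 (0.87), Apc (0.864), Map2 (0.856), Tmem19 (0.853), Dpysl5 (0.847), Sh3glb1 (0.844), Oprl1 (0.843) and Mboat2 (0.838). Dok4 gave 728, 1779 and 1313 at P14, and Dpysl5, a regulator of growth cones, 544, 2622 and 1632. In both, as in the mean of the members, P14 litter 2 was the highest P14 litter and P14 litter 1 the lowest, and the likeness is over 10 litters that share 3 ages. All 10 genes had a lower mean log2 signal at P60 than at P14, from -0.24 for Oprl1 to -2.01 for Dpysl5 (limma, adjusted p = 0.0723), and none of the 10 passed the test.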

How the data were processed

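RNA of V1 from 10 litters was measured on Affymetrix MG-U74 arrays of types A, B and C, 30 arrays in all. Per the labels' protocols, total RNA was extracted with Trizol and labelled cRNA was made from 6 µg of it. The deposited values are intensities, MAS5 signals on a linear scale per the submitters' processing notes. Which version of the software was run is not stated there. All 30 arrays had a trimmed mean of 500, so no further scaling was applied. No detection calls or probe sequences were used here.

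Symbols came from the array annotation, brought up to date by gene ID for 99.7% of them. Log2 of the signal plus the chip type's 20th percentile (38.6, 57.8 and 44 on chips A, B and C) was fitted with limma 3.58.1 in R 4.3.3 (lmFit, eBayes with a variance trend), each chip type apart, over the 20724 probe sets above the chip's median on at least 3 arrays. The code was tested on simulated data. Counts per gene kept 1 probe set, chip A before B before C and then the brightest. The genes named are all members, genes of the pathway, main myelin and SREBP genes, those past the threshold and the 3 with the largest P60 to P14 difference of each list, and the 10 most alike. The members and lists were chosen with earlier results of these data known. Values of the lists and their genes, and the correlations among members, without P14 litter 1 or in the restricted set were added after seeing the data. The number of arrays limits the precision. Some listed genes are not reported here.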

Additional observations from a re-analysis of the deposited data

Results flagged for a closer look

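On 2 of the 20 member probe sets, 1 of the 4 P60 litters lay far from the others by Dixon's criterion, which chance meets in about 1 in 20 groups. For Sqle on chip A this was P60 litter 2, at a signal of 972 against 805 to 829 in the other P60 litters. It remained below every P14 litter. For Cyp51 on chip A it was P60 litter 2 again, at 290.6 against 176 to 183. The groups of 3 litters at P14 and P28 were not examined in this way.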

How the results depend on the processing

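The probe sets of the 8 genes were refitted with limma under 20 alternatives. The alternatives tested the same 12, save that a stricter filter tested 7 of them and a setting with no filter tested all 20. In the fit as reported 0 of 12 passed in each comparison, and 0 passed under every alternative for P60 against P28 and for P28 against the mean of P14 and P60. For P60 against P14, 1 of 7 passed with the stricter filter, which asks for all arrays above the median (1.36% of all called). With arrays centred on their median 1 of 12 passed (0.439%), and 1 of 12 in the restricted set of arrays (2.13%). It was Sqle in each. With array weights 4 passed, a setting that called 17.5% of all probe sets. Leaving out single litters gave 0 to 2. The 2 were Sqle and Fdps, without P14 litter 1 (2.4% of all called). Without P60 litter 3 (1.25% of all called) 1 passed, the chip C probe set of Dhcr7. For P28 against P14, 2 passed with array weights, and for the F-test 3 did, while leaving out single litters gave 0 to 1 for the F-test. The brightest Fdps probe set reversed from 0.03 to -0.83 with array weights and to -0.84 without P14 litter 1, with 0.54 at the other end, without P14 litter 2. With the replicate block, the litter number as a term beside age, 0 of 12 passed for P60 against P14, and 0 of all 20724 probe sets, against 82 without it. Deviations from the age means correlated between same-numbered litters at r from -0.076 to 0.158 over 27 pairs, 4 of them over 0.1, so the numbers were not taken as pairing litters. Over all 940 values, 10 came to pass the threshold with the sign kept, and 2 passed it with the sign reversed. In 68, these 2 among them, the sign differed from that of the reported fit or the value rounded to 0. Dim probe sets limit what can be seen of Cyp51, Lss and Dhcr7. The cause of these dependences was not tested.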
